A study of Mus musculus with 6 samples.

Results

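Cluster 1 is a group of cells in the cardiac outflow tract (OFT) of the mouse embryo, one of the 13 Leiden clusters into which the study sorted its OFT cells. Its members were taken as every segmented cell that lay inside the OFT outline and carried the cluster label 1. They were 1065 of the 6078 OFT cells (17.5%) and 0.292% of the 364721 segmented cells of the sections. The cells were measured by MERFISH, a multiplexed form of fluorescence in situ hybridization that decodes single RNA molecules in a tissue section and here read a panel of 140 genes at E11.5. The embryo was the replicate, with 3 embryos in each genotype. The control, Ankrd11-nchet, was heterozygous for a floxed allele of Ankrd11, a chromatin regulator, and Ankrd11-ncko was homozygous for it. Both genotypes carried Wnt1Cre2, which recombines in the neural crest, and the RosaYFP STOP reporter, so the control was also short of 1 Ankrd11 copy in its neural crest and no embryo with 2 working copies there was analysed here. Cells of the OFT that do not come from the neural crest were not targeted in either genotype. The level of Ankrd11 in the cells was not analysed here, so the genotypes rest on the labels.

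The OFT is the tube through which the early heart ejects blood, and it is divided during development into the aorta and the pulmonary trunk. Cardiac neural crest cells (CNCCs) enter it and contribute mesenchyme and vascular smooth muscle, beside myocardium, endothelium and cells of the second heart field. In the study's marker heatmap cluster 1 is led by Cxcl12, Jag1 and Efna5. Cxcl12 encodes a chemokine that guides cells bearing the receptor Cxcr4, and in the forming great arteries it is also known as an early gene of vascular smooth muscle. Jag1 encodes a membrane-bound Notch ligand that acts on neighbouring cells and is required for arterial smooth muscle and OFT development. Efna5 encodes ephrin-A5, a membrane-anchored ligand of Eph receptors, which steer migrating cells. These genes named the cluster and are not results here. Values per gene, cell positions and cell volumes were not analysed here, so the naming genes could not be checked, and the study gave the cluster no cell type. It is called cluster 1 throughout. The study assigned clusters 2, 3 and 7 to CNCC-derived mesenchyme, and cluster 1 is not among them. In each of these mesenchymal clusters the study reported lower Cxcl12 in Ankrd11-ncko cells. It also listed Efna5 as lower and Jag1 as changed between the genotypes in the mesenchyme. Whether such differences in the naming genes altered which cells were labelled cluster 1 was not tested.

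The sections held 43458 to 82198 segmented cells, of which 814 to 1292 lay in the OFT outline. No cell identifier occurred in more than 1 embryo, and the genotype recorded beside each cell matched the sample labels in all 6 embryos. Cell identifiers of the third embryo of either genotype started with 7 digits in common, unlike those of the other 4 embryos. The embryos were processed at 2 facilities, 2 of each genotype at Vizgen and 1 of each at the University of Alberta. The other 4 embryos and the third embryos form sets of the same sizes. Which embryo was processed where is not given in the sources used here. Genotypes were compared by the difference between embryo means with a permutation test, exact and 2-sided, that can reach no p below 0.1 with 3 embryos against 3. No comparison could thus pass 0.05 by this test.

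Cluster 1 made up a smaller share of the OFT cells in every Ankrd11-ncko embryo than in any control embryo. It held 23.3%, 17.1% and 26.1% of the OFT cells in the controls, with 95% Wilson intervals of 20.7% to 26.2%, 14.9% to 19.6% and 23.5% to 28.8%. It held 13.9%, 15.7% and 8.60% in Ankrd11-ncko embryos, with intervals of 12.1% to 15.8%, 13.6% to 18.1% and 6.86% to 10.7%. The intervals cover counting error only. The highest Ankrd11-ncko embryo, the second, and the lowest control embryo, also the second, had overlapping intervals. The mean share was 22.2% ± 4.62 in controls and 12.7% ± 3.69 in the Ankrd11-ncko (SD, n = 3 and 3), which differ by -9.44 percentage points (exact permutation p = 0.1, Benjamini-Hochberg adjusted p = 0.52 over 13 clusters). Of the 13 clusters, 2 (15.4%) had shares that did not overlap between the genotypes, cluster 1 being one of them and the small cluster 12 the other. In a negative binomial model of the numbers of cells per cluster (edgeR's quasi-likelihood test), cluster 1 had a log2 difference of -0.80 with an adjusted p of 0.41, and 0 of the 13 clusters (0%) passed an adjusted p of 0.05, with 1 cluster, cluster 12, at an unadjusted p under 0.05.

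The difference in share was carried unevenly by the embryos. Between the third embryos, whose identifiers share their first digits, the share differed by -17.5 percentage points (8.60% in Ankrd11-ncko against 26.1%). Among the other 4 embryos the difference was -5.42 percentage points (exact permutation p = 0.333, the smallest that 2 against 2 allow). With these 2 sets of embryos as a block the difference was -9.44 percentage points (exact permutation p = 0.167, the smallest that 12 divisions allow). Each set holds as many control as Ankrd11-ncko embryos, so the block could change only the p-value and not the difference. The titles of 3 samples, those of the first and the second control embryos and of the second Ankrd11-ncko embryo, begin with the same letters and digits. The embryos came from several litters, and neither the litter of each embryo nor what the title marks is given in the sources used here. Among these 3 embryos the share was 23.3% and 17.1% in the controls and 15.7% in the Ankrd11-ncko, a difference of -4.49 percentage points (exact permutation p = 0.667, n = 2 and 1). Among the remaining 3 it was 26.1% in the control and 13.9% and 8.60% in the Ankrd11-ncko, a difference of -14.9 percentage points (exact permutation p = 0.333, n = 1 and 2, the smallest that 3 embryos allow). The direction was the same in all of these sets. It could not differ between them, since every Ankrd11-ncko share lay below every control share. The part of litter, facility or run in the size of the difference was not tested. With all cells of a genotype pooled, cluster 1 held 22.2% of the control and 13.1% of the Ankrd11-ncko OFT cells.

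As numbers of cells the genotypes overlapped. Cluster 1 held 212, 168 and 275 cells in the controls and 179, 161 and 70 in Ankrd11-ncko embryos. The first Ankrd11-ncko embryo thus had more cluster 1 cells than the second control embryo, and the third Ankrd11-ncko embryo had the fewest of all. The means were 218 ± 53.8 and 137 ± 58.4 cells per section (SD, n = 3 and 3, exact permutation p = 0.2). The difference of -81.7 cells became -48.3 when the third Ankrd11-ncko embryo was left out and -53.3 when the third control embryo was. The OFT cells outside cluster 1 numbered 697, 816 and 779 in controls and 1113, 864 and 744 in Ankrd11-ncko embryos, with means of 764 ± 60.9 and 907 ± 188 (SD, n = 3 and 3, exact permutation p = 0.3). The first Ankrd11-ncko embryo had the most OFT cells in all, so its low share stood beside a number of cluster 1 cells within the control range. The third combined the fewest cluster 1 cells with the fewest OFT cells of the Ankrd11-ncko embryos. How large the outlined area was is not analysed here, and fewer cells of cluster 1 and more cells of other clusters in the outline cannot be told apart from a share. Whether cells of the same type received a different cluster label in the Ankrd11-ncko was not tested either.

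**Figure D1:**
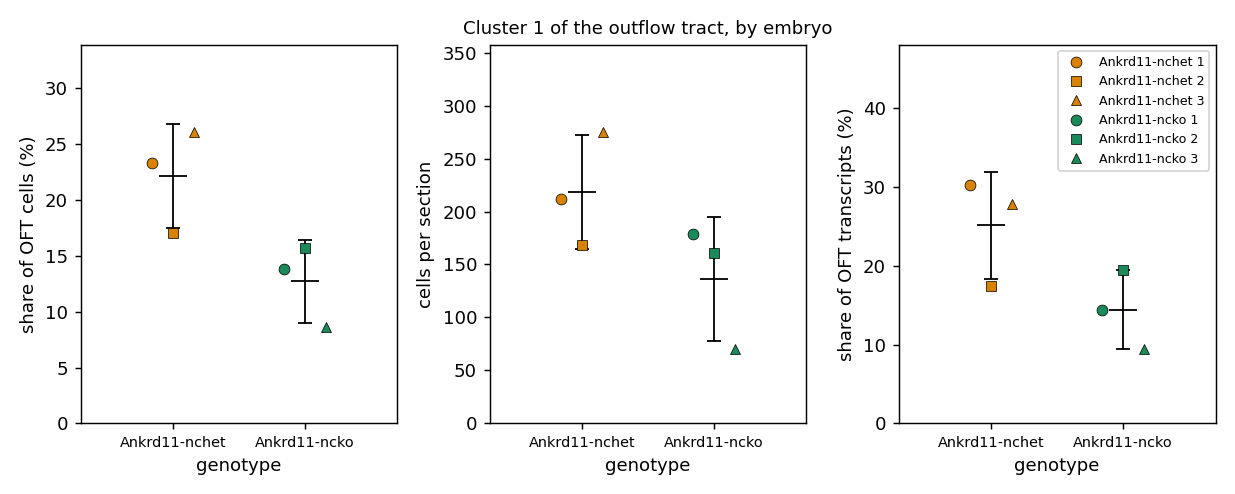
Share of OFT cells in cluster 1 (left, %), cluster 1 cells per section (middle) and share of all decoded OFT transcripts held by cluster 1 (right, %), with 1 point per embryo and the mean ± SD of each genotype in black. The genotypes do not overlap in the share of cells, while in number the first Ankrd11-ncko embryo (179) lies above the second control embryo (168), and in transcripts the second Ankrd11-ncko embryo (19.4%) lies above the second control embryo (17.4%).

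The choice of denominator mattered to the overlap. Among OFT cells outside the mesenchymal clusters 2, 3 and 7, cluster 1 made up 34.5%, 25.04% and 40.1% in the controls and 21.5%, 27.7% and 19.3% in Ankrd11-ncko embryos. The second Ankrd11-ncko embryo exceeded the second control embryo on this base, and the means were 33.2% ± 7.63 and 22.9% ± 4.34 (SD, n = 3 and 3, exact permutation p = 0.2). Per 1000 segmented cells of the whole section, cluster 1 had 4.88, 2.04 and 5.42 cells in the controls and 3.19, 2.18 and 1.20 in Ankrd11-ncko embryos, again with overlap (exact permutation p = 0.3, n = 3 and 3). The second control embryo, which had the largest section, was the lowest control embryo on each of these bases.

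Features of the cell identifiers varied between clusters, cluster 1 included. The identifiers hold a digit, the 14th, that is 1 or 2 in every cell, and its meaning is not given in the sources used here. The digit was 2 in 24.1%, 35.7% and 33.8% of the cluster 1 cells of the control embryos and in 11.2%, 28.6% and 17.1% of those in Ankrd11-ncko embryos. Among the other OFT cells of the same embryos it was 2 in 17.6%, 21.9% and 12.5% and in 9.25%, 12.04% and 9.54%. Cells with the digit 2 were thus more frequent in cluster 1 than in the rest of the OFT in all 6 embryos, and less frequent in the OFT of each Ankrd11-ncko embryo than in that of any control embryo. The same order held over all segmented cells of the sections, with 31.0%, 32.1% and 27.2% in controls and 23.5%, 26.4% and 22.5% in Ankrd11-ncko embryos (exact permutation p = 0.1, n = 3 and 3). Cluster by cluster, the share of cells with the digit 2 did not overlap between the genotypes in 4 of 10 clusters (40%), and overlapped in cluster 1.

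Within cells of 1 digit the share of cluster 1 was recomputed. Among cells with the digit 1 it was 21.9%, 14.5% and 21.1% in the controls and 13.6%, 13.1% and 7.93% in Ankrd11-ncko embryos, still without overlap, and the difference was -7.60 percentage points (exact permutation p = 0.1, n = 3 and 3). Among cells with the digit 2 it was 29.3%, 25.1% and 48.9% against 16.3%, 30.7% and 14.5%, with overlap (exact permutation p = 0.3, n = 3 and 3). With the digits weighted alike in every embryo, the shares were 23.1%, 16.2% and 25.5% in controls and 14.02%, 15.9% and 8.96% in Ankrd11-ncko embryos. They differed by -8.61 percentage points on average, with the lowest control embryo at 16.2% and the highest Ankrd11-ncko embryo at 15.9%.

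Set against the other clusters of the same embryo, cluster 1 was less abundant in the Ankrd11-ncko mean for all 9 clusters that held cells in every embryo. The mean log2 ratio of cluster 1 cells to the cells of each differed between the genotypes by -1.95 (cluster 3) to -0.29 (cluster 9). These ratios share their numerator and are not independent. The groups did not overlap in 1 of the 9 ratios (11.1%), that to cluster 3, a mesenchymal cluster. For each cell of cluster 3 there were 5.17, 1.51 and 1.79 cells of cluster 1 in the controls and 1.10, 0.942 and 0.234 in Ankrd11-ncko embryos. The log2 ratio averaged 1.27 ± 0.96 and -0.68 ± 1.23 (SD, n = 3 and 3, exact permutation p = 0.1, adjusted p = 0.45 over the 9 clusters). The first control and the third Ankrd11-ncko embryo stand at the ends of this range, the former with 41 cells of cluster 3 and the latter with 299. Toward cluster 7, also mesenchymal, the ratio was 2.49, 8.40 and 5.85 in controls and 2.56, 1.96 and 0.722 in Ankrd11-ncko embryos, and the groups overlapped through the first embryo of each (exact permutation p = 0.2, adjusted p = 0.45, n = 3 and 3).

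Cluster 2, the remaining mesenchymal cluster, stood closer to cluster 1 in number. Cluster 1 outnumbered cluster 2 in the first and the third control embryos (ratios of 1.26 and 1.64) and in the third Ankrd11-ncko embryo (1.25). In the other embryos cluster 2 was the larger, with ratios of 0.923 in controls and 0.785 and 0.843 in the Ankrd11-ncko. The log2 ratio averaged 0.31 ± 0.41 and -0.09 ± 0.36 (SD, n = 3 and 3, exact permutation p = 0.2, adjusted p = 0.45). By number of cells cluster 1 was thus the largest cluster of the first and the third control embryos and the second largest of the second. In Ankrd11-ncko embryos it ranked 2, 3 and 4.

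**Figure D2:**
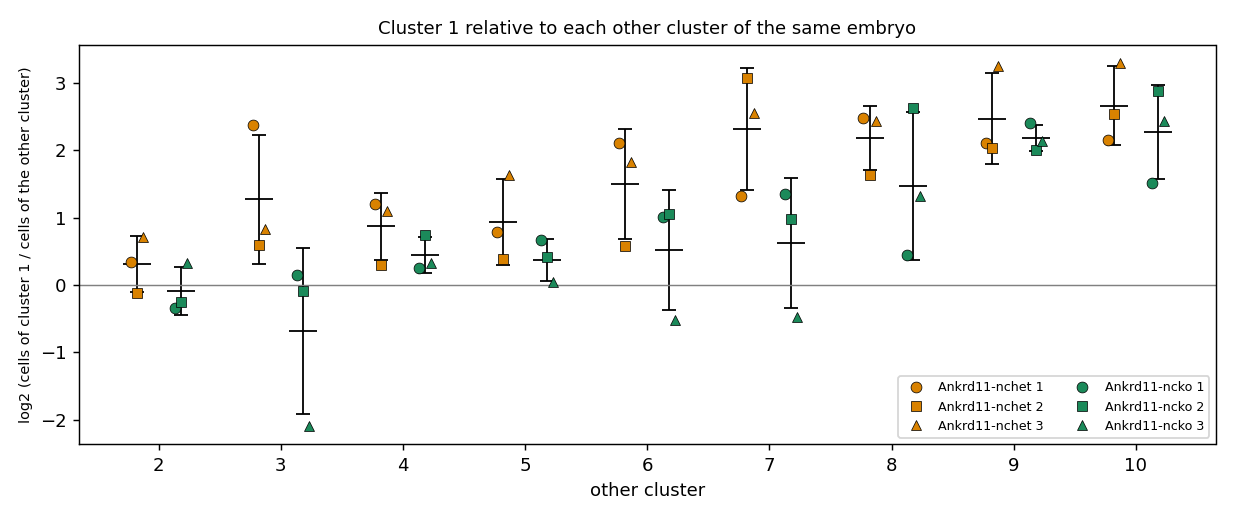
Number of cluster 1 cells over the number of cells of clusters 2 to 10 in the same embryo (y axis, log2; x axis, the other cluster), with 1 point per embryo and the mean ± SD of each genotype in black. The Ankrd11-ncko mean is below the control mean for all 9 clusters, and only for cluster 3 do the points of the genotypes not overlap.

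Cells of cluster 1 were well filled with transcripts. Together they held 741277 decoded transcripts, 19.1% of those in the OFT, and the median cell had 634 transcripts and 101 panel genes. The shallowest cell held 143 transcripts and the deepest 2111. None of the 1065 cells had fewer than 100 transcripts, for which 3 cells, the limit that a count of 0 allows, would be 0.282%, whereas 344 OFT cells were that shallow. Of the 708 OFT cells under 200 transcripts, 11 were in cluster 1. Shallow cells were thus rarely labelled cluster 1. Clusters 2, 3, 4, 6, 8 and 9 likewise held no cell under 50 transcripts, since that minimum left the ratios of cluster 1 to them unchanged. A lack of cells under 50 transcripts was thus not particular to cluster 1. Whether those clusters held cells under 100 transcripts was not analysed here. Cells were neither thinned to a common depth nor clustered again.

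The median cluster 1 cell held 494.5, 758.5 and 640 transcripts in the controls and 526, 755 and 767.5 in Ankrd11-ncko embryos. The first embryo of each genotype was the shallowest, and the groups overlapped. The means of these medians were 631 ± 132 and 683 ± 136 transcripts (SD, n = 3 and 3, exact permutation p = 0.6). Median transcripts did not overlap between the genotypes in 1 of the 10 clusters compared (10%), and that was not cluster 1. Within an embryo the cells varied to a like degree, with a coefficient of variation of 46.6%, 44.1% and 43.1% in controls and 43.8%, 43.2% and 43.3% in the Ankrd11-ncko. Cells with more than 1000 transcripts made up 6.60%, 29.8% and 15.6% of cluster 1 in the controls and 6.15%, 26.7% and 25.7% in Ankrd11-ncko embryos (exact permutation p = 1, n = 3 and 3). Cells with fewer than 200 numbered 4, 0 and 2 against 5, 0 and 0 (shares of cluster 1, exact permutation p = 1, n = 3 and 3). The medians of embryos of 1 genotype were spread more widely, by their SDs, than the genotype means differed (51.8 transcripts).

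**Figure D3:**
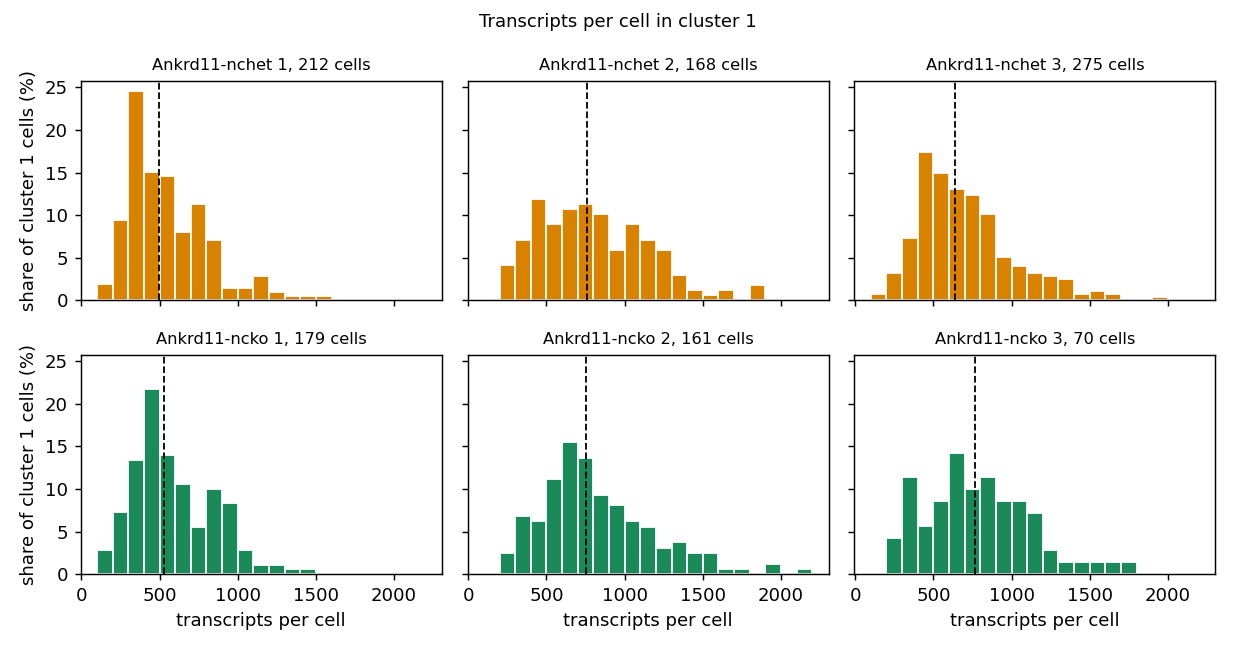
Distribution of decoded transcripts per cluster 1 cell (x axis) as a share of the cluster 1 cells of each embryo (y axis, %), in bins of 100 transcripts, control embryos above and Ankrd11-ncko embryos below, with the median as a dashed line. The first embryo of each genotype has a lower median, 494.5 and 526 transcripts, than the other 4 embryos, whose medians lie between 640 and 767.5.

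Relative to the other OFT cells of its own embryo, cluster 1 was the deeper in all 6. The ratio of the medians was 1.38, 1.03 and 1.05 in the controls and 1.01, 1.31 and 1.23 in Ankrd11-ncko embryos. It was close to 1 in 3 embryos and the groups overlapped (log2 ratio 0.19 ± 0.24 and 0.24 ± 0.19, SD, n = 3 and 3, exact permutation p = 1). Among clusters 1 to 10 its median ranked 3, 6 and 7 in the controls and 5, 4 and 4 in Ankrd11-ncko embryos, so it was not the deepest cluster of any embryo. The comparison group includes cluster 10, whose median cell held 8 to 21 transcripts, and cluster 7, at 153 to 211.5.

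Through its size and depth, cluster 1 held 30.2%, 17.4% and 27.8% of all OFT transcripts in the controls and 14.4%, 19.4% and 9.46% in Ankrd11-ncko embryos. The second Ankrd11-ncko embryo exceeded the second control embryo. The means were 25.1% ± 6.79 and 14.4% ± 4.98 (SD, n = 3 and 3, exact permutation p = 0.2), which differ by -10.7 percentage points.

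The difference in share was also read among cells of like depth. Cluster 1 made up 24.2%, 16.8% and 17.3% of control cells with 200 to 399 transcripts and 14.3%, 8.24% and 7.97% of the Ankrd11-ncko cells in that range. Among cells with 400 to 799 transcripts, where the largest number of cluster 1 cells lay, it made up 28.6%, 20.2% and 34.7% and 17.5%, 18.3% and 9.06%. The genotypes did not overlap in either range (exact permutation p = 0.1 for each, n = 3 and 3). Below them, at 100 to 199 transcripts, they overlapped, with 4.17%, 0% and 4.44% in controls and 5.49%, 0% and 0% in Ankrd11-ncko embryos. Those shares rested on at most 5 cluster 1 cells per embryo. In the ranges above 799 transcripts they overlapped as well. Among cells with 800 to 1199 transcripts the shares were 45.0%, 18.5% and 26.1% in controls and 16.7%, 20.4% and 13.9% in Ankrd11-ncko embryos (exact permutation p = 0.2, n = 3 and 3). Among the deepest cells, with 1200 or more, they were 14.8% and 24.5% in the second and the third control embryos against 5.48%, 22.9% and 5.98% (exact permutation p = 0.2, n = 3 and 3, the first control embryo included). The first control embryo had only 10 OFT cells in that deepest range, 5 of them in cluster 1. In both of these ranges the second Ankrd11-ncko embryo exceeded the second control embryo.

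**Figure D4:**
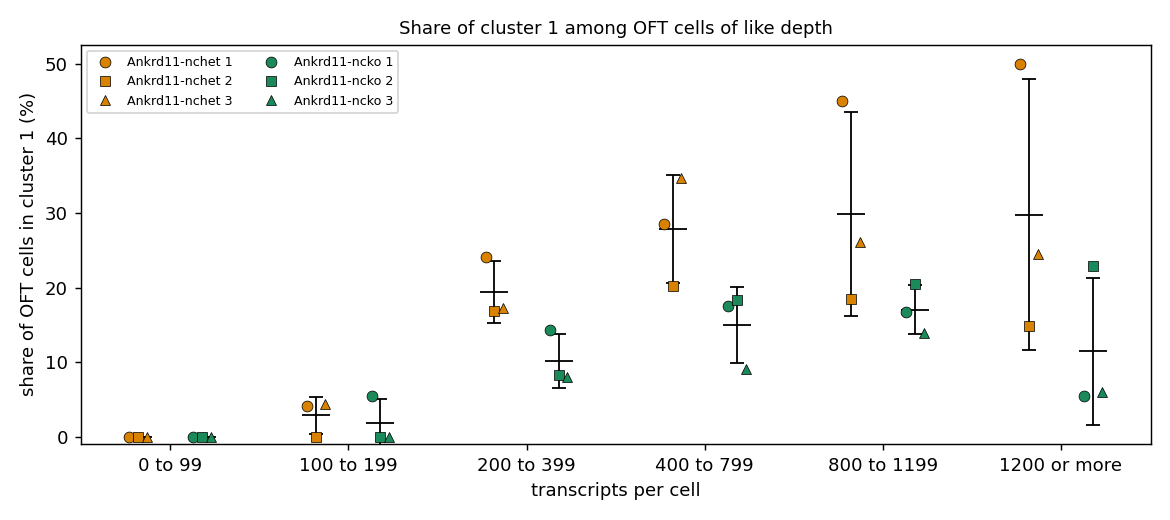
Share of OFT cells in cluster 1 (y axis, %) among cells of a given range of decoded transcripts (x axis), with 1 point per embryo and the mean ± SD of each genotype in black. No cell under 100 transcripts is in cluster 1, and the genotypes do not overlap in the ranges 200 to 399 and 400 to 799.

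A broad part of the panel was detected in cluster 1 cells. The median cell detected 95.5, 106 and 103 of the panel genes in the controls and 96, 104 and 104 in Ankrd11-ncko embryos, with means of 102 ± 5.41 and 101 ± 4.62 (SD, n = 3 and 3, exact permutation p = 1). By this median cluster 1 ranked 1, 2 and 1 among clusters 1 to 10 in the controls and 3, 1 and 2 in Ankrd11-ncko embryos. None of the 10 clusters compared (0%) had medians that did not overlap between the genotypes. Since more transcripts reveal more genes, the genes were also counted in cells with 400 to 799 transcripts. There the median cluster 1 cell detected 99, 100.5 and 100 panel genes in the controls and 96, 98 and 100 in Ankrd11-ncko embryos. The third Ankrd11-ncko embryo matched the third control embryo, while the first and second lay below all controls. The means were 99.8 ± 0.764 and 98.0 ± 2.00 (SD, n = 3 and 3, exact permutation p = 0.3, adjusted p = 0.6 over the 8 clusters with enough such cells). In 2 of those 8 clusters (25%) the genotypes did not overlap, and cluster 1 was not one of them.

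At this depth cluster 1 detected more panel genes than any other of clusters 1 to 10 with at least 5 such cells, in each of the 6 embryos. The clusters were made from the same genes, so this is a description of cluster 1 and was not tested. In the controls the next was cluster 2, with 96 genes in each, level with cluster 8 in the second. In the first and second Ankrd11-ncko embryos it was cluster 8, with 95 and 94.5 genes. In the third embryo it was cluster 9, with 98 genes in 7 cells that were deeper within the range (a median of 752 transcripts against 604 in cluster 1). Elsewhere the median transcripts of cluster 1 and of the next cluster within the range differed by less, from 584 against 584.5 in the third control embryo to 526 against 564 in the first Ankrd11-ncko embryo. At the other end stood cluster 5, with 74.5 to 79 genes, and cluster 7 in the second Ankrd11-ncko embryo, with 75. The panel was assembled from genes of OFT development, so the number says how much of that panel was detected in a cell and not how many genes it expressed.

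**Figure D5:**
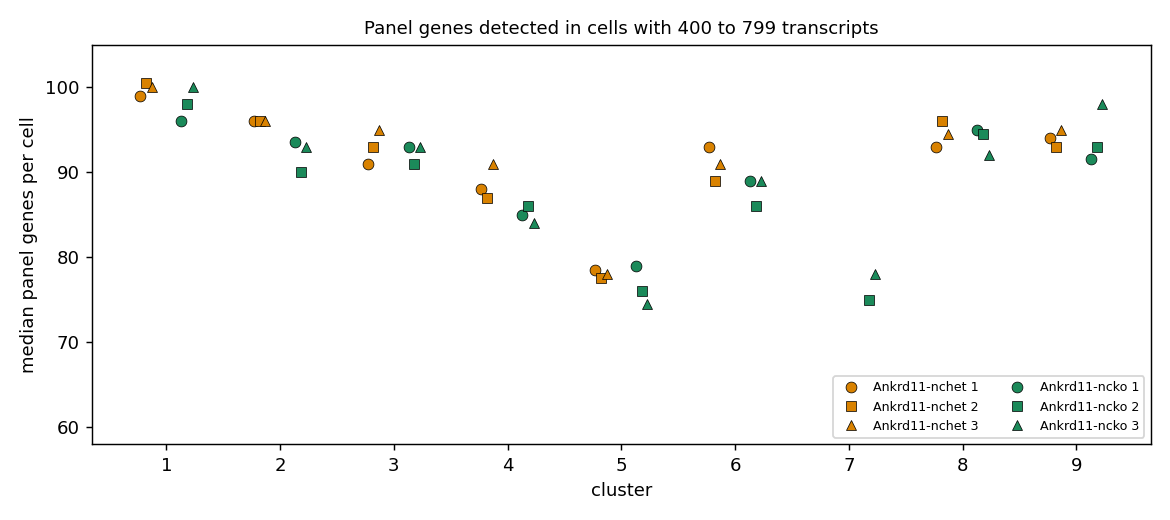
Median number of panel genes detected per cell (y axis, starting at 58) among cells with 400 to 799 transcripts, by cluster (x axis), with 1 point per embryo; points resting on fewer than 5 such cells are left out. Cluster 1 spans 96 to 100.5 genes and is the highest cluster of each embryo, and cluster 5 lies at 74.5 to 79.

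Cluster 1 cells also lay together in the order of the identifiers. Where the OFT cell next in order carried the same digits up to the 14th, the cell after a cluster 1 cell was itself a cluster 1 cell in 50.9%, 36.1% and 59.0% of cases in the controls and in 32.02%, 45.96% and 36.2% in Ankrd11-ncko embryos, 2.12 to 4.21 times the share of cluster 1 in the embryo. For clusters 2 to 10 the same multiple ran from 0.779 to 5.38 over the embryos, so such runs were not particular to cluster 1. Identifiers that agree in their first 13 digits form blocks, and the share of cluster 1 differed between blocks of at least 50 OFT cells. It ran from 3.74% to 66.2% in the second control embryo, from 16.3% to 45.1% in the third and from 12.5% to 24.6% in the first. In Ankrd11-ncko embryos it ran from 5.01% to 27.6% in the first and from 0% of 289 cells to 44.2% in the second. The 0% allows a share of up to 1.04% if cells are taken as independent, while cells of cluster 1 lay in runs. The third Ankrd11-ncko embryo had 1 such block. In that embryo this block held 98.6% of the cluster 1 cells. The part of the digit and of the blocks in the difference between the genotypes was not tested beyond the shares within digits given above.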

How the data were processed

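MERFISH data of 3 Ankrd11-nchet and 3 Ankrd11-ncko sections were used. The authors decoded RNA spots with MERlin and used Cellpose for segmentation. They read the data with squidpy, took the OFT from a hand-drawn polygon and ran a joint Leiden clustering in Seurat. The deposited counts, taken without normalization, are decoded transcripts and panel genes detected per cell. Neither the clustering resolution nor a correction between runs is given in the sources used here. Hand-drawn outlines and joint clustering set which cells are counted, and neither was varied.

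Numbers, shares and medians per embryo were computed with pandas 2.3.3, numpy 2.4.6 and scipy 1.17.1 under Python 3.11.15. Genotypes were compared by exact 2-sided permutation of 20 divisions of the embryos, with Benjamini-Hochberg adjustment over clusters. Numbers of cells per cluster were also fitted with edgeR 4.0.16 under R 4.3.3. Scripts were tested on simulated data. Cluster 1, its marker genes and the tests were chosen with earlier results of these data known. Only Cxcl12, Jag1 and Efna5, the genes that name the cluster, are named as its markers. Embryos were numbered in the order of the sample list, so the numbers pair no embryos. Embryos of both genotypes do share the first digits of their identifiers or the start of their titles, and these sets were used for comparisons within sets and, for the identifiers, as a block.

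Alternatives left out each embryo, set a minimum of 50 or 200 transcripts per cell, changed the denominator, the scale, the depth range or the reference clusters, and used means for medians. A minimum of 500 transcripts, the identifier digits and the sets of embryos by identifier or title were added after the data were seen.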

Additional observations from a re-analysis of the deposited data

How the results depend on the processing

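The lower share of cluster 1 in the Ankrd11-ncko kept its direction under every alternative run. Leaving out embryos or taking sets of them could not reverse it, since every Ankrd11-ncko share lay below every control share. Without 1 embryo at a time it ranged from -12.0 to -7.38 percentage points (exact permutation p between 0.1 and 0.2), and with at least 500 transcripts per cell it was -12.4 (exact permutation p = 0.2, n = 3 and 3). Between the 2 embryos with like identifiers the difference was -17.5 percentage points and -205 cells, and among the other 4 it was -5.42 points and -20 cells. With these sets as a block the differences were -9.44 points and -81.7 cells (exact permutation p = 0.167 and 0.333). Each set holds as many control as Ankrd11-ncko embryos, so the block could not change the size or direction of any difference. Among the 3 embryos whose titles begin alike they were -4.49 points and -29 cells, and among the remaining 3 they were -14.9 points and -150.5 cells. edgeR gave log2 differences of -0.80 and, with TMM factors, -0.82 (adjusted p = 0.41 and 0.39), and called 0 of 13 clusters either way. The number of cells ranged from -107 to -48.3 and the share of OFT transcripts from -14.6 to -8.18 without 1 embryo.

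Small differences changed sign. Without 1 embryo, median transcripts ranged from -16.4 to 130, median panel genes from -3.17 to 2.50, the log2 level relative to other OFT cells from -0.034 to 0.18, the share under 200 transcripts from -0.871 to 0.567 points, the share over 1000 from -3.18 to 8.88 points and the log2 ratio to cluster 9 from -0.50 to 0.10. With means in place of medians, panel genes differed by 0.506 and the relative level by -0.028. Among the 3 embryos whose titles begin alike, median panel genes differed by 3.25 and the share under 200 transcripts by -0.943 points. Panel genes at matched depth ranged from -2.83 to -0.833. Of the 9 ratios to other clusters, 8 to 9 were lower in the Ankrd11-ncko without 1 embryo, and 8 with at least 200 transcripts per cell, where cluster 10 could not be compared. The cause of these changes was not tested. No cluster 1 cell had fewer than 100 transcripts, and the effect of depth on the cluster labels was not tested.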
